A study of Drosophila melanogaster with 32 samples.

Results

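Open chromatin of aly mutant testes was compared with that of testes taken 72 h after a pulse of Bam, through the ATAC-seq peak list and the nucleosome map deposited for each condition. The members were all 29559 peaks of the aly list and all 35547 peaks of the 72h list, 65106 of the 200831 peaks in the 6 ATAC-seq lists of the series, with 99570 nucleosome positions in the aly map and 116245 in the 72h map. A peak counted as shared when it overlapped a peak of the other list by 1 bp or more.

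The series profiled Drosophila melanogaster testes with 32 libraries, of which 20 were ATAC-seq, 8 RNA-seq and 4 CAGE. The aly flies were homozygous mutants of aly, grown for 10 days at 25 C with no heat shock, and gave 6 ATAC-seq libraries (3 replicates of 2 technical libraries each) and 2 RNA-seq libraries. The 72h flies were bam mutants carrying Bam under a heat shock promoter. They were raised for 9 days at 22 C, received a heat shock of 30 min at 37 C, stayed a further 72 h at 25 C, and gave 3 ATAC-seq and 2 RNA-seq libraries. Both conditions are labelled as enriched for mature spermatocytes, and both are whole testes, which also hold somatic cells. The aly allele is not named in the labels. 4 further conditions are used beside them. The topi flies were homozygous topi mutants grown for 10 days at 25 C with no heat shock, labelled as enriched for mature spermatocytes. The 48h flies had the genotype and treatment of the 72h flies but were taken 48 h after the heat shock, labelled as enriched for young spermatocytes. The heat shock control flies were bam mutants with no Bam construct in the label, raised for 9 days at 22 C, given the same heat shock and taken after 48 h. The bam flies were homozygous bam mutants grown for 12 days at 22 C with no heat shock, and both these last conditions are labelled as enriched for spermatogonia. Genotype, growth temperature, heat shock and growth time all differed between aly and 72h and cannot be told apart. ATAC-seq used 10 to 20 pairs of testes per library and RNA-seq 100 pairs. Each condition had 1 peak list and 1 nucleosome map, so differences between them carry no replicate error and no test.

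Aly is a subunit of tMAC, the testis meiotic arrest complex, which is needed in spermatocytes to switch on genes for the meiotic divisions and for sperm building. Mutant germ cells arrest as mature primary spermatocytes, and the testis-specific TAFs, relatives of general transcription factor subunits, act on many of the same genes. ATAC-seq inserts adapters with a transposase into DNA that nucleosomes leave free. A peak is such an accessible stretch, and the lengths of the fragments around it allow nucleosome positions to be placed.

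Most peaks of aly testes were also peaks at 72h, and the longer 72h list held more peaks without a counterpart. In the aly list 24771 peaks (83.8%) overlapped a 72h peak and 4788 (16.2%) did not, against 24011 shared (67.5%) and 11536 alone (32.5%) in the 72h list. With both lists limited to the 29559 peaks of highest -log10 q, 22.9% of aly and 25.8% of 72h peaks were unshared, so the gap narrowed at equal list length. With both limited to a -log10 q of 10 or more, 9.96% of aly and 34.6% of 72h peaks were unshared. The aly peaks covered 8.28 Mb and the 72h peaks 10.4 Mb. Peaks found in one list alone were short, with a median width of 142 bp against 239 bp for shared peaks in the aly list, and 150 bp against 270 bp in the 72h list. They were also weak within their own list. The authors' fold enrichment at the summit had a median of 2.25 for unshared and 3.50 for shared aly peaks, and of 2.28 for unshared and 3.54 for shared 72h peaks. These fold values are used only to rank peaks within a list. Few peaks sat at the edge of the overlap rule, since 22 aly and 18 72h peaks were shared by 20 bp or less and 9 aly and 12 72h peaks missed a partner by under 20 bp.

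Sharing climbed with strength in both lists. Each list was cut by fold enrichment into 10 bins of equal size. In the weakest bin of aly peaks 52.6% were also in the 72h list, and in the strongest bin 99.7%, which left 8 of 2956 alone. In the weakest bin of 72h peaks 34.3% were also in the aly list, and in the strongest bin 98.0%, which left 72 of 3555 alone. Of those 72 strong 72h peaks, 56 lay at a gene end, 10 inside a gene and 6 outside genes, whereas 1 of the 8 strong aly peaks lay at a gene end, 4 inside a gene and 3 outside.

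**Figure D1:**
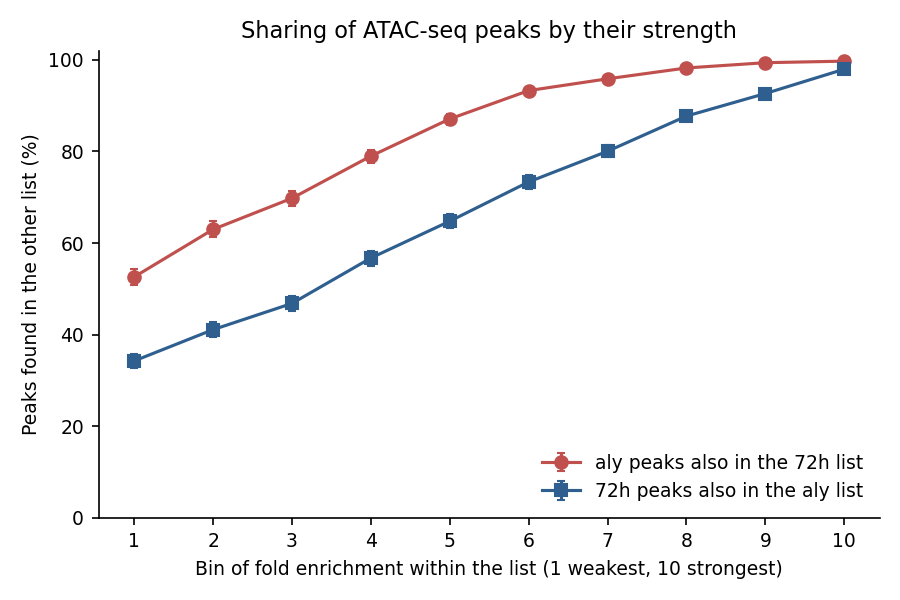
Share of ATAC-seq peaks (vertical axis, percent) that overlapped a peak of the other list, by bin of fold enrichment within each list (horizontal axis, 10 bins of equal size), for aly peaks (circles) and 72h peaks (squares), with 95% Wilson intervals that cover counting error only. In the weakest bin 52.6% of aly and 34.3% of 72h peaks were shared, and in the strongest bin 99.7% of aly and 98.0% of 72h peaks.

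The 2 unshared sets differed in where they lay. A gene end here means 100 bp either side of the first or last base of a gene in RefSeq, whose table gives no strand, so start and stop of transcription are not separated. Gene ends held 10.2% of the unshared aly peaks, 21.0% of the unshared 72h peaks, and 32.8% of the shared peaks of the aly list. The bodies of genes held 70.4% of the unshared aly peaks and 63.5% of the unshared 72h peaks, and the space outside genes 19.4% of the unshared aly peaks and 15.5% of the unshared 72h peaks. By chromosome, the unshared part of the aly list ran from 14.5% on X to 16.6% on 3R among the large arms, with 25.5% on chromosome 4 and 49.1% (28 of 57 peaks) on Y. In the 72h list it ran from 30.6% on X to 34.2% on 2L, with 40.4% on chromosome 4 and 41.3% (19 of 46 peaks) on Y.

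The other deposited lists placed the unshared peaks differently. Of the unshared aly peaks 47.1% were also in the list of topi mutants, another tMAC mutant, and 33.1% in the 48h list, taken 48 h after the Bam pulse. Of the unshared 72h peaks 32.8% were in the topi list and 62.1% in the 48h list. The bam mutant list held 16.8% of the unshared aly and 30.6% of the unshared 72h peaks. The heat shock control list held 18.4% of the unshared aly and 35.6% of the unshared 72h peaks. Shared peaks were found more often in every one of these lists, from 85.2% (shared 72h peaks, heat shock control) to 96.8% (shared aly peaks, 48h). None of these 4 lists (topi, 48h, the 48 h heat shock control and bam) held 37.1% of the unshared aly and 27.9% of the unshared 72h peaks.

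At gene ends most unshared peaks were seen at 72h and not in aly. Of 17807 genes placed on the RefSeq assembly of build dm6, 388 (2.18%) had an aly peak and no 72h peak at an end, 2166 (12.2%) a 72h peak and no aly peak, 9281 (52.1%) both and 5972 neither. Neighbouring genes can share a peak, and the 2166 genes of the 72h-only class drew on 1945 strongest peaks. In 59 of the aly-only and 171 of the 72h-only genes no peak at an end was unshared, because the partner peak fell outside the window. With equal list lengths 508 genes were aly only and 1935 were 72h only.

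Genes that had a peak at their end at 72h and none in aly mostly had less RNA in aly testes. RNA-seq counts of separate samples of the same conditions were tested with edgeR's quasi-likelihood test, and calls needed an adjusted p (Benjamini-Hochberg) under 0.05 with a change of 2-fold or more. Over all 13495 genes tested, 33.6% were lower and 22.1% higher in aly than at 72h. In the 72h-only class 1425 of 1844 tested genes were lower (77.3%) and 119 higher (6.45%), with a median log2 fold change of -5.55. The median stood at -5.28 with the 171 genes at 0 counts in aly set to their bound. In CPM, edgeR's counts scaled by effective library size, the median gene of that class had 0.641 CPM in aly, 35.1 CPM at 72h, 10.2 CPM at 48h and 0.381 CPM in bam. In the aly-only class 96 of 287 tested genes were higher (33.4%) and 68 lower (23.7%), with a median of 0.32. Genes with both peaks were lower in 1467 of 8135 cases (18.0%) and higher in 2043 (25.1%), with a median of 0.27. All placed and tested genes had a median of -0.08. In bulk testes, fewer cells of a type and less RNA or less open chromatin per cell cannot be told apart.

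**Figure D2:**
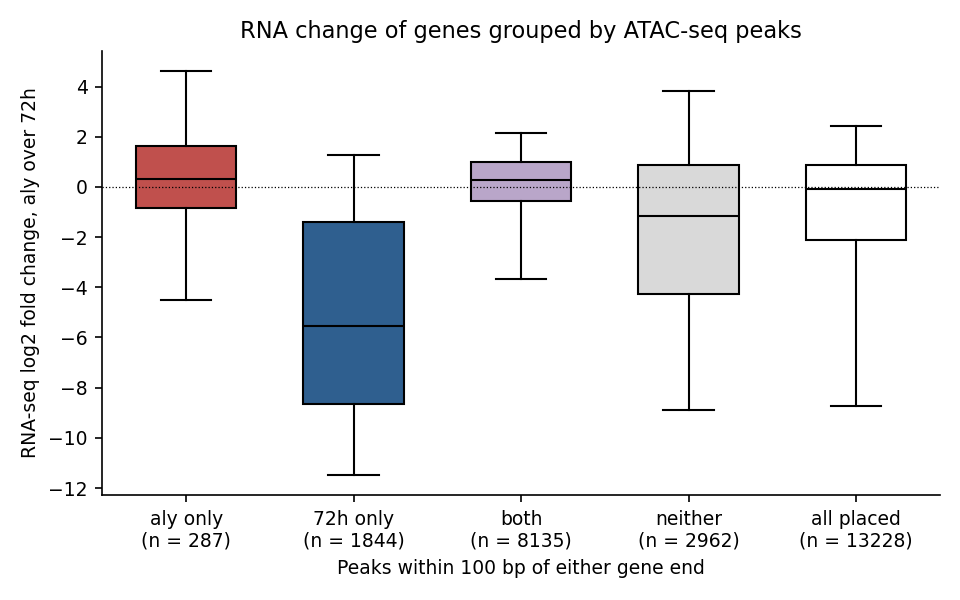
RNA-seq log2 fold change of aly over 72h (vertical axis) for tested genes grouped by the ATAC-seq peaks within 100 bp of either gene end (horizontal axis), with medians, quartile boxes and whiskers from the 5th to the 95th percentile of genes. The 72h-only box lies below 0, with a median of -5.55 against 0.32 for aly-only genes and 0.27 for genes with both peaks.

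The RNA difference also ran in step with how strong the 72h peak was within its list. Split into 4 bins by peak fold, 59.2% of the tested 72h-only genes in the lowest bin were lower in aly, then 76.8%, 84.6% and 88.5% in the higher bins, with median log2 fold changes of -2.21, -5.13, -6.95 and -7.16. A bam peak at the same gene went with a smaller share. Among 72h-only genes with a bam peak at an end 42.5% of 318 were lower, against 84.5% of 1526 without one. With a topi peak the share was 49.4% of 316 genes, against 83.0% of 1528 without one. Of the 70 genes at whose end one of the 72 strong unshared 72h peaks lay, 63 were tested and 61 were lower, with 1 higher.

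Taken end by end, 709 gene ends had an aly peak alone, 3396 a 72h peak alone and 10679 both. The 270 tested genes with a 72h peak and no aly peak at both ends were lower in 240 cases (88.9%), with a median of -7.19, or -6.91 with genes at 0 at their bound. Where 1 end had a 72h peak alone and the other had none, 75.3% of 1574 were lower. Where the other end had a peak of each list, 32.7% of 796 were lower and 19.1% higher, close to the 33.6% and 22.1% over all genes. Genes with peaks of both lists and no 72h-only end were lower less often, in 16.4% of 7302 cases, with 25.8% higher. Genes with at least 1 end open in aly alone were lower in 108 of 545 cases (19.8%) and higher in 176 (32.3%).

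The called genes were also read the other way, against the make-up of the 13228 placed and tested genes, of which 13.9% were 72h only, 2.17% aly only, 61.5% had both peaks and 22.4% neither. Of the 4478 genes lower in aly, 31.8% were 72h only, 1.52% aly only, 32.8% had both peaks and 33.9% neither, so the 72h-only and neither classes held more of them than of all tested genes. Of the 2930 higher genes, 4.06% were 72h only, 3.28% aly only, 69.7% had both peaks and 22.9% neither, so the 72h-only class held fewer of them and the neither class about its share of all tested genes.

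The tMAC and testis TAF genes were open at an end in both lists. All 8 tMAC genes and all 5 testis TAF genes had both peaks, against 52.1% of all genes. None was lower by 2-fold or more in aly, and 4 of the 8 and 4 of the 5 were higher, against 33.6% lower and 22.1% higher over all genes tested. With both lists limited to a -log10 q of 10 or more, vis and mia kept the 72h peak alone. The tMAC genes topi, comr, tomb and achi, and the TAF genes can, sa, mia and nht, rose in aly, with a median log2 fold change of 1.00 over the tMAC list and 1.39 over the TAF list. RNA of aly, the mutated gene, stood at 72.0 and 69.6 CPM in aly and at 98.0 and 96.5 CPM at 72h. Its fold of 0.728 fell short of the 2-fold limit (log2 -0.46 ± 0.03 SE, edgeR adjusted p = 4.4e-14), and its counts were not lost in the mutant. The gene lies at chr3L:3024129-3026521, with a peak at its upper end in the aly list at chr3L:3026228-3026615 and in the 72h list at chr3L:3026277-3026616. The gene for the zinc finger subunit Topi had 1141 and 1152 CPM in aly and 165 and 168 CPM at 72h (log2 2.78 ± 0.02 SE, edgeR adjusted p = 2.5e-39). The aly values lay far above both 72h values while its end was open in both. Of the TAF genes, the TAF12 relative Taf12L (rye) had 92.9 and 87.4 CPM in aly and 94.9 and 97.3 CPM at 72h and was not called.

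The gene bam itself, the switch from proliferation to differentiation, broke the pattern. Its end carried a 72h peak at chr3R:25245063-25245171 and no aly peak, yet its RNA was 95.8 and 97.4 CPM in aly and 13.7 and 12.1 CPM at 72h (log2 2.91 ± 0.05 SE, edgeR adjusted p = 6.2e-30). An aly peak lay within 500 bp of an end of bam. The 72h flies were bam mutants with a heat shock construct, and in these counts the construct and the native gene cannot be told apart. Of 8 genes listed as early spermatocyte regulators, including the TAF gene nht, 5 had both peaks. Rbp4 had an aly peak alone, and kmg and sunz a 72h peak alone. Rbp4, an RNA-binding protein of early spermatocytes, had 878 and 886 CPM in aly and 201 and 212 CPM at 72h. The zinc finger gene kmg had 165 and 165 CPM in aly and 140.2 and 138 CPM at 72h, which did not pass 2-fold. The RNA of sunz was 0.0479 and 0 CPM in aly, a single read, and 30.6 and 30.1 CPM at 72h. Its mean was 0.116 CPM in bam and 1.76 CPM at 48h, so its RNA came late and the list name does not describe it.

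Testis mitochondrial, testis proteasome and spermatid genes had the largest shares of 72h-only ends among the 16 lists. Of 18 testis paralogs of mitochondrial proteins, 13 had a 72h peak and no aly peak at an end, where all genes gave 12.2%, and all 13 were lower in aly. With a window of 500 bp the number was 12 of 18. Over the list 16 of 18 were lower and 1 was higher, against 33.6% and 22.1% of all genes tested, with a median log2 fold change of -6.47. The import receptor paralog tomboy20 lies at chr3R:10735277-10735957, inside an unshared 72h peak at chr3R:10735240-10736059. It had 0 and 0 CPM in aly and 197 and 201 CPM at 72h, at least 2928-fold lower by a floor of 3 counts over the aly libraries. The complex I paralog ND-24L had 8.67 and 8.28 CPM in aly and 150.3 and 157 CPM at 72h (log2 -4.18 ± 0.05 SE, edgeR adjusted p = 3.6e-34). The cytochrome oxidase paralog COX4L kept the most RNA of the 13 in aly, 37.9 and 41.4 CPM against 321 and 322 CPM at 72h. Of the 5 members with both peaks, COX7AL, the testis cytochrome c gene Cyt-c-d and ATPsynGL were lower and ATPsynbetaL higher. COX7AL had 1.10 and 0.948 CPM in aly against 101 and 99.4 CPM at 72h, so an end open in both lists did not go with equal RNA.

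**Figure D3:**
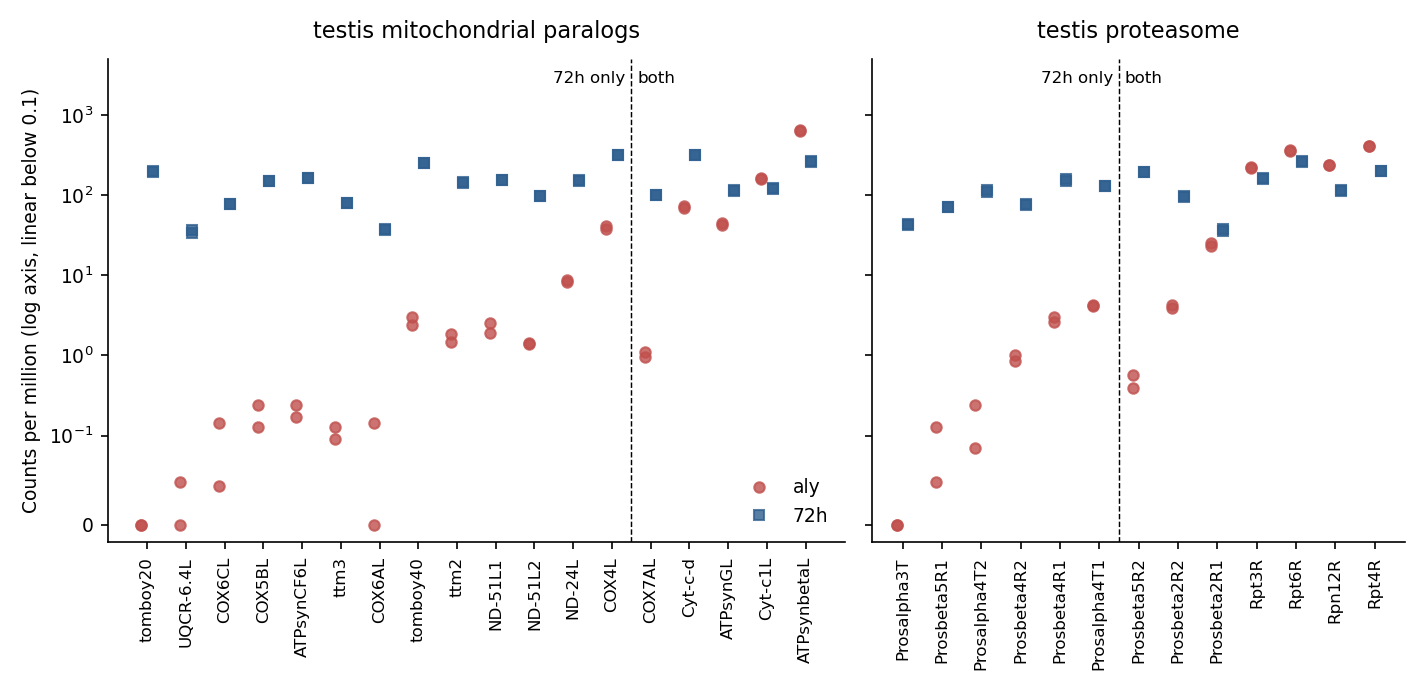
CPM, normalised counts scaled by library size (vertical axis, logarithmic above 0.1 and linear below) in each of 2 aly libraries (circles) and 2 72h libraries (squares) for the testis mitochondrial paralogs and testis proteasome genes with a peak at an end, split by a dashed line into 72h-only genes and genes with both peaks. Every 72h-only gene lies lower in both aly libraries than in both 72h libraries, whereas ATPsynbetaL, Rpn12R and Rpt4R, with both peaks, lie more than 2-fold higher in aly.

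The testis proteasome genes split by class. The 6 with a 72h-only end, Prosalpha3T, Prosalpha4T1, Prosalpha4T2, Prosbeta4R1, Prosbeta4R2 and Prosbeta5R1, encode core particle subunits and were all lower in aly, with a median of -7.89. Prosalpha3T had 0 CPM in both aly libraries and 43.3 and 41.9 CPM at 72h. Prosbeta4R1, with an unshared 72h peak at chr2L:2653009-2653385, had 2.59 and 3.02 CPM in aly and 149 and 158 CPM at 72h. Over the list 9 of 14 were lower, 2 higher and 3 not called, against 33.6% lower and 22.1% higher of all genes tested. The 1 member with no peak at an end was lower too. Of the 7 with both peaks, Prosbeta2R2 and Prosbeta5R2 were lower, and the regulatory particle genes Rpn12R and Rpt4R were higher. With 7 genes, 2 lower and 2 higher do not stand apart from the shares over all genes. Rpt4R had 417 and 413 CPM in aly and 200.1 and 199 CPM at 72h.

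The spermatid list behaved likewise. Of 45 genes, 17 had a 72h-only end, none an aly-only end, 26 both peaks and 2 neither, where 12.2% of all genes were 72h only and 52.1% had both. In RNA 40 of 44 tested were lower in aly and none higher, against 33.6% and 22.1% of all genes tested. All 17 72h-only members were lower, with a median of -7.02, as were 21 of 25 tested members with both peaks, with a median of -1.89. The gene CG31802 had an unshared 72h peak at chr2L:18208934-18209349 and 0.144 and 0.216 CPM in aly, against 193 and 190.5 CPM at 72h (log2 -10.00 ± 0.10 SE, edgeR adjusted p = 7.6e-37). The sperm chromatin gene Mst77F had 2.78 and 3.71 CPM in aly and 1416 and 1410.1 CPM at 72h. The peak at Mst77F, chr3L:20815949-20818138, touched an aly peak outside the window and so was shared. With a window of 500 bp, 12 of the 45 spermatid genes were 72h only. The mitochondrial fusion gene fzo had 3.11 and 2.67 CPM in aly and 546 and 549.9 CPM at 72h, and the sperm tail gene dj 1.39 and 1.81 CPM in aly and 381 and 378 CPM at 72h. Both protamine-like genes were 72h only, with 5.94 and 7.11 CPM of ProtA in aly against 186 and 161 CPM at 72h. ProtA and ProtB are closely related copies, so reads may be split between them and each value is uncertain. Of the members with both peaks, the testis beta-tubulin gene betaTub85D had 187 and 186 CPM in aly and 1583 and 1599 CPM at 72h. Aly libraries kept more RNA of ocn, with 298 and 293 CPM against 665 and 657 CPM at 72h.

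Meiotic division genes were mixed. Of 11 genes 3 were 72h only and 8 had both peaks, against 12.2% and 52.1% of all genes. In RNA 7 of 11 were lower in aly and none higher, against 33.6% and 22.1% of all genes tested, with a median of -2.07. The 3 were twe, the Cdc25 phosphatase of male meiosis, with 55.1 and 54.1 CPM in aly and 268 and 272 CPM at 72h, the anaphase-promoting complex activator fzr2 with 2.40 and 3.02 CPM in aly and 253 and 259 CPM at 72h, and the ring finger gene Roc1b. At twe an aly peak lay within 500 bp of an end. CycB, the B-type cyclin gene, had both peaks and 4.26 and 4.53 CPM in aly against 296 and 302 CPM at 72h. CycA had both peaks too, with 295 and 292 CPM in aly and 272 and 266 CPM at 72h.

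**Figure D4:**
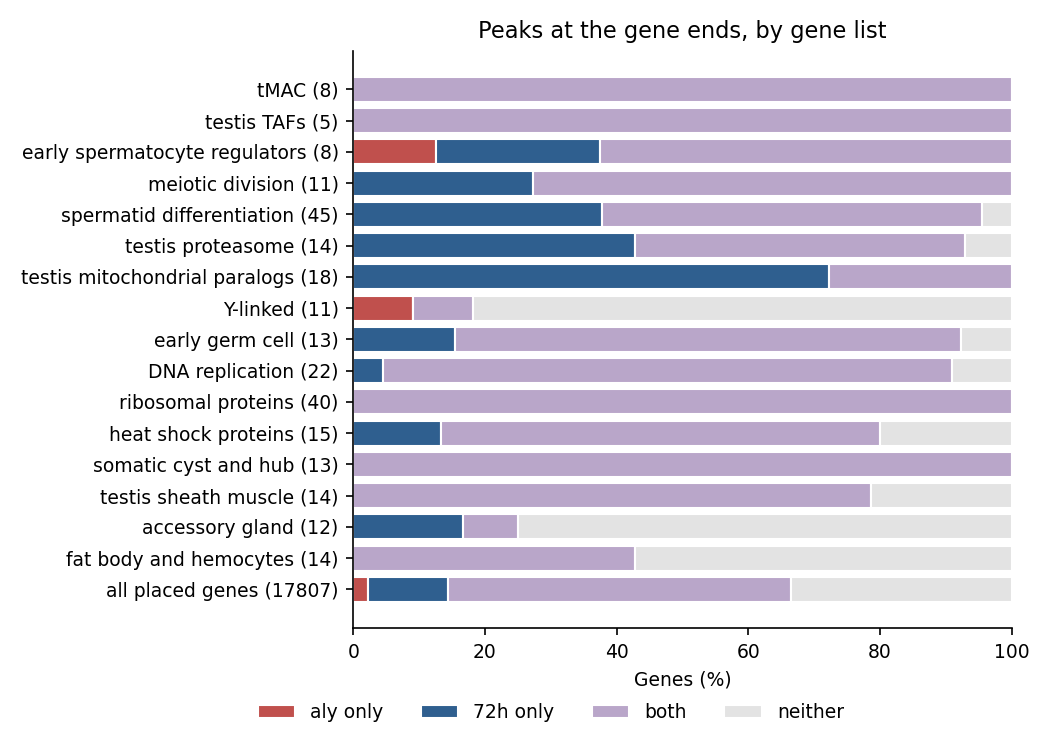
Share of the placed genes of each list (horizontal axis, percent, number of genes in parentheses) with a peak within 100 bp of an end in the aly list alone, in the 72h list alone, in both or in neither. The 72h-only share is 13 of 18 for the mitochondrial paralogs, 6 of 14 for the testis proteasome and 17 of 45 for spermatid differentiation, against 2166 of 17807 for all genes.

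Ribosomal protein and DNA replication genes had few unshared ends. All 40 ribosomal protein genes had both peaks, and 1 was lower and 1 higher among 39 tested, against 33.6% and 22.1% of all genes tested. DNA replication genes had both peaks in 19 of 22 cases and a 72h-only end in 1, Cdc45, with 5 lower and 5 higher of 20 tested. Early germ cell genes had both peaks in 10 of 13 cases. Of the other 3, bam and aub, a piRNA pathway gene, were 72h only and AGO3 had neither, a 72h-only share of 15.4% against 12.2% of all genes. At a -log10 q of 10 or more, 4 of the 13 were 72h only and 1 aly only. The RNA of aub was 55.2 and 51.2 CPM in aly and 48.6 and 46.7 CPM at 72h, so its 72h-only end came without a called change. Heat shock genes had both peaks in 10 of 15 cases, against 52.1% of all genes, and 4 of 14 tested were higher and 3 lower, not far from the 22.1% and 33.6% of all genes tested. Copies of Hsp70 share sequence, and values of single copies are uncertain.

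Y-linked fertility genes mostly had lower RNA without a peak at an end. Of 11 genes 9 had no peak at an end in either list, ORY had both and CCY an aly peak alone, at chrY:3666979-3667219, while 10 of 11 were lower in aly, against 33.6% of all genes tested, with a median of -5.15. CCY had 1.68 and 1.55 CPM in aly and 17.6 and 16.9 CPM at 72h and was lower in aly, although its peak was in the aly list alone.

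Markers of other cells were measured beside these lists. The 12 accessory gland genes, whose products come from a gland outside the testis, were lower in aly in 12 of 12 cases, against 33.6% of all genes tested. They summed to 98.3 and 96.6 CPM in aly and 2511 and 2480.3 CPM at 72h, and none was at 0 counts in aly. Of these genes 9 had no peak at an end in either list, 1 had both and 2, Acp29AB and Acp98AB, were 72h only. Cyst and hub cell genes had both peaks in 13 of 13 cases, against 52.1% of all genes. They summed to 267 and 263 CPM in aly and 293 and 299 CPM at 72h, with 1 of 13 lower and 1 higher. Muscle genes summed to 1141 and 1147 CPM in aly and 1354 and 1362 CPM at 72h, with 1 of 13 lower and 1 higher. Fat body and hemocyte genes summed to 743 and 734 CPM in aly and 1233 and 1242 CPM at 72h, with 3 of 13 lower and 2 higher. Both peaks were found at 11 of 14 muscle and 6 of 14 fat body and hemocyte genes, and neither at the rest. Over all genes tested 33.6% were lower and 22.1% higher. The part of these other cells in the difference between the peak lists was not tested.

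Of the 1705 tested 72h-only genes with an unshared peak at an end 79.1% were lower, against 33.6% of all genes tested. The strongest unshared peaks at gene ends, chosen after their values were seen, gave 10 of 10 lower genes on the 72h side. They lay at lncRNA:CR44059, CG17349, CG15395, CG13984 and its neighbour CG43922 (which share 1 peak), CG14658, gskt, eIF4E4, rha and CG31802. The peak at CG17349, chr2L:19370351-19370707, covered the lower end of the gene at chr2L:19370445-19372711, which had 0.383 and 0.302 CPM in aly and 148 and 153 CPM at 72h. At gskt, a testis relative of the kinase GSK3, the peak lay at chr3R:31372276-31372686 and RNA was 0.527 and 0.517 CPM in aly and 308 and 312 CPM at 72h (log2 -9.20 ± 0.07 SE, edgeR adjusted p = 1.9e-40). At eIF4E4, a paralog of the cap-binding translation factor, the peak lay at chr3L:6665468-6665776 and RNA was 1.20 and 1.42 CPM in aly and 494 and 486 CPM at 72h. The rha gene had an unshared peak at chr3R:25340133-25340948 and 3.07 and 3.49 CPM in aly against 424 and 420 CPM at 72h. In each of these genes both aly libraries lay below both 72h libraries.

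Of the 245 tested aly-only genes with an unshared peak at an end 33.1% were higher and 22.0% lower. Over all genes tested 22.1% were higher and 33.6% lower. The 10 genes with the strongest of these aly peaks were less uniform than those on the 72h side, with 5 higher and 2 lower. They were CG2875, CG30395, sordd2, CR15345, CG33667, Pde11, the neighbours Glut1 and aln (1 peak), betaNACtes4 and hpRNA:CR32205. At CG30395 the peak lay at chr2R:21765054-21765441, with 122 and 122 CPM in aly and 31.7 and 29.2 CPM at 72h (log2 2.01 ± 0.05 SE, edgeR adjusted p = 2.2e-27). At sordd2 the peak lay at chrX:15799075-15799298, with 11.02 and 9.74 CPM in aly and 0 and 0.0468 CPM at 72h, a single read, and a 72h peak lay within 500 bp of an end. At betaNACtes4, a testis relative of a nascent chain binding protein, the peak lay at chrX:14380157-14380434 with 244 and 247 CPM in aly and 64.0 and 64.9 CPM at 72h. The strongest of them, at CG2875 (chrX:3573531-3573773), came with 4.12 and 5.30 CPM in aly and 4.77 and 5.57 CPM at 72h, which overlap. CG33667 was lower, with 0.814 and 0.647 CPM in aly and 4.98 and 5.80 CPM at 72h.

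Ranking the one-list classes by the highest peak at an end, shared or not, gave other genes. On the 72h side these were lncRNA:CR45899, ap, lncRNA:CR44933, Cyp313b1, CG43796, asRNA:CR45714, BBS1, C15, lncRNA:CR44032 and asRNA:CR43948. All 10 peaks also overlapped an aly peak beyond the window. Of 7 genes tested 3 were lower and 1 higher, against 33.6% and 22.1% of all genes tested and 77.3% and 6.45% of the class. CG43796 was one of the lower ones, with 0.240 and 0.302 CPM in aly and 52.4 and 55.7 CPM at 72h. On the aly side they were fy, lncRNA:iab8, CG3309, Smyd4-3, CG2875, snoRNA:Or-CD9b, CG1529, Tom20, asRNA:CR45210 and CG30395. Of those peaks 2 were unshared. Of 8 genes tested 4 were higher and none lower, against 22.1% and 33.6% of all genes tested and 33.4% and 23.7% of the class. CG1529 had 43.7 and 41.2 CPM in aly and 11.2 and 9.55 CPM at 72h.

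The extremes of the RNA-seq comparison were then read against the peaks. Genes were ranked by edgeR's log2 fold change, which for genes at 0 counts goes beyond their bound. CG43321, in the 10 largest falls, was at least 1353-fold lower, while CG14658, outside them with 3 aly counts, was 1965-fold lower. Among rises ppk11 ranked first with a bound of 217-fold, while CG30371 was 361-fold higher. The 10 largest falls by this ranking, among genes with 10 CPM or more at 72h, had 0 counts in both aly libraries. Of these genes 7 (CG7295, tomboy20, CG34241, CG12035, CG10909, Ran-like and CG43750) had an unshared 72h peak at an end, and 3 (CG13127, CG12729 and CG43321) had no peak of either list within 100 bp of an end. With a window of 500 bp CG13127 was 72h only, and CG12035 and CG43321 had both peaks. CG7295, at chr2L:1869803-1871032 with a peak at chr2L:1869718-1870232, had 215 and 214 CPM at 72h, at least 3152-fold lower in aly. Ran-like, a paralog of the nuclear transport GTPase, had 112 and 112 CPM at 72h, at least 1648-fold lower in aly. The 10 largest rises were CG30371 and sordd2 with an aly-only end, Cad88C with both peaks, and ppk11, ppk16, wrapper, CG9289, CG17193, Alp8 and Obp59a with no peak of either list within 100 bp of an end. Of the aly-only peaks the one at sordd2 was unshared, and the one at CG30371 overlapped a 72h peak beyond the window. With a window of 500 bp ppk11 and ppk16 were aly only, and CG30371, sordd2, wrapper, CG9289 and CG17193 had both peaks. Cad88C, a cadherin gene, had 430.1 and 424 CPM in aly and 1.69 and 1.78 CPM at 72h (log2 7.94 ± 0.05 SE, edgeR adjusted p = 1.5e-41) with its end open in both. The ion channel genes ppk11 and ppk16 have the same coordinates in RefSeq, so their ends and peak classes cannot be told apart. Their RNA was counted separately, with 703 counts of ppk11 and 1148 of ppk16 in aly. How reads over bases common to both were assigned is not known.

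Nucleosome occupancy, the estimated share of DNA copies covered, had similar medians in the 2 maps. The median over all positions was 0.850 in aly and 0.852 at 72h, with a median of 7 reads behind an aly position and 10 behind a 72h position. Within 50 bp of a position in the other map lay 43.2% of aly and 37.0% of 72h positions. At the 23400 positions matched within 20 bp the median difference was 0, and the deposited bounds did not overlap at 568 of them, with aly higher at 165 and lower at 403. Those bounds rest on a median of 11 reads in aly and 18 at 72h. At the 163 matched positions in unshared aly peaks the median occupancy was 0.713 in aly and 0.771 at 72h (median difference -0.0464), and at the 366 in unshared 72h peaks it was 0.806 in aly and 0.749 at 72h (median difference 0.0553). The bounds did not overlap at 2 and 8 of these positions. Unshared peaks were picked from ATAC-seq of the same conditions as the maps, so the opposite signs of these differences are no separate result.

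Around shared peaks, nucleosome centres in both maps were measured from the summits of the 24011 shared 72h peaks. They were densest at the same distance in both maps, with more near the summit and fewer in the flanks in aly. The summit of the aly peak can lie elsewhere, and what this does to the aly profile was not tested. A nucleosome centre lay within 73 bp of the summit, close enough to cover it, at 32.8% of shared peaks in the aly map and 27.6% in the 72h map. Centres were densest 130 bp from the summit in both, at 6.47 per 100 peaks in a step of 10 bp in aly and 7.58 at 72h. At the unshared 72h peaks the aly map had a centre within 73 bp of 15.3% of summits and within 300 bp of 42.4%, against 28.8% and 98.0% in the 72h map. At the unshared aly peaks the aly map had one within 73 bp of 36.3% and within 300 bp of 92.3%, against 17.3% and 45.5% in the 72h map. The maps thin out away from the peaks of their own list. Of aly positions 84.0% lay within 500 bp of an aly peak, and of 72h positions 88.7% within 500 bp of a 72h peak. Where an aly peak lay within 500 bp of the unshared 72h peak, 28.5% of summits had an aly centre within 73 bp, against 29.9% in the 72h map. Where none did, the aly map had a centre at 8.47% and the 72h map at 28.3%. A missing aly position at an unshared 72h peak is therefore no measure of an absent or a present nucleosome.

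**Figure D5:**
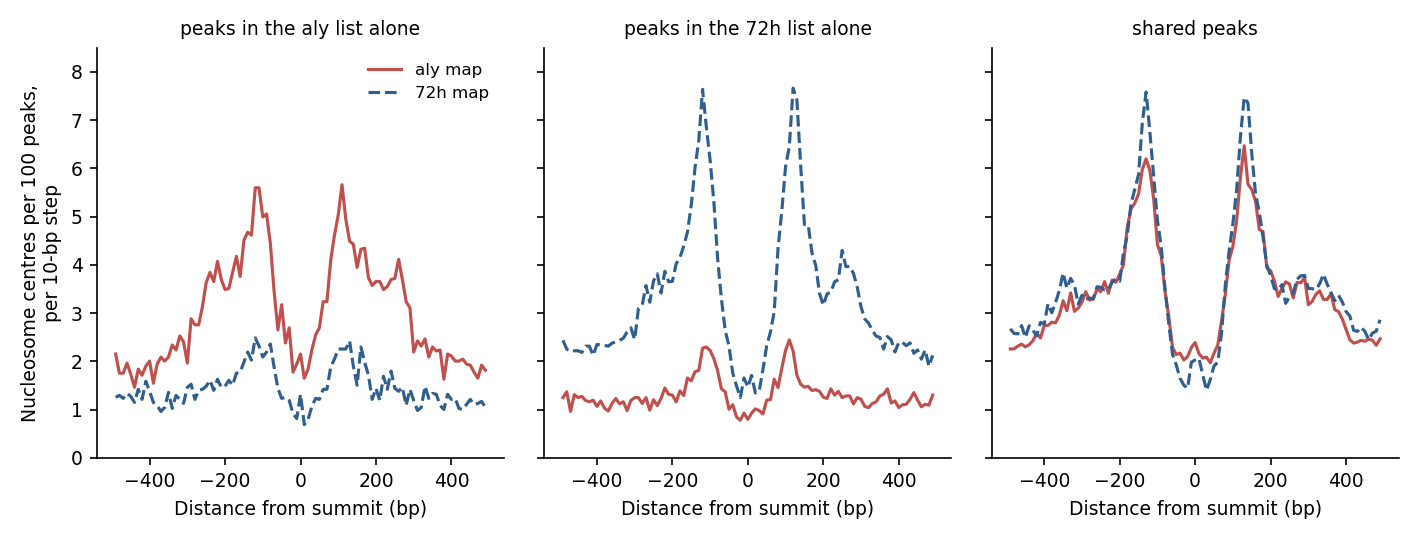
Nucleosome centres per 100 peaks in steps of 10 bp (vertical axis) by distance from the peak summit (horizontal axis, bp) in the aly map (solid) and the 72h map (dashed), for peaks in the aly list alone, in the 72h list alone and shared. Both maps have flanks at 130 bp around the 72h summits of shared peaks. Around unshared peaks the map of the other condition is lower throughout, with weak flanks. These reach 2.44 per 100 peaks in the aly map at 72h peaks and 2.49 in the 72h map at aly peaks.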

How the data were processed

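ATAC-seq and RNA-seq of fly testes were analysed from deposited files. Per the submitters' processing notes, build dm6 was used with MACS2 2.1.1, bedtools 2.25.0, deepTools 2.5.4, BWA 0.7.10, STAR 2.5.1b, STAR 2.5.4b and Trim Galore 0.4.1. Which step each tool served, the nucleosome caller, the counter with its strand setting, and how ATAC-seq replicates were joined were not given in the sources used here. Peak lists deposited by the authors give the fold enrichment, a ratio, and the -log10 q of each peak. The deposited nucleosome maps give occupancy as a fraction with bounds, and counts of reads. The deposited RNA-seq values are raw counts per gene. ATAC-seq depth per library is unknown.

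RNA-seq libraries held 20064489 to 28984275 counts. Genes passing filterByExpr were fitted in edgeR 4.0.16 (R 4.3.3) over all 8 libraries, with TMM scaling and no covariate. CPM are edgeR's counts scaled by effective library size, SE comes from the F statistic, and genes at 0 counts get a bound from 3 counts over the group. Nothing in the labels says that RNA-seq replicates came from separate crosses, and they varied by 2.11% (biological coefficient of variation). The p-values therefore measure only the spread between these libraries, which may be technical.

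Of 17559 gene identifiers 17253 had a symbol. Positions came from RefSeq, which places 13228 of the 13495 tested genes and gives no strand, so a promoter window was replaced by 100 bp on each side of both gene ends. No exons or sequences were used here. The members and the 16 gene lists were chosen with earlier results of these data known; 1 listed symbol was not found. Genes named were those mutated and the tMAC and TAF lists; the 10 highest peaks at gene ends of each one-list class; the 5 highest unshared peaks away from gene ends in each list; the 10 largest RNA falls and rises at 10 CPM or more; and the 2 highest one-list members of each list. Others were named as examples of their list. Alternatives covered overlap, peak threshold, window, scaling, test and replicates.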

Additional observations from a re-analysis of the deposited data

How the results depend on the processing

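The share of aly peaks found in the 72h list was 83.3% when 50% of the shorter peak had to overlap, 71.8% by summits within 100 bp, 90% at a -log10 q of 10 or more and 77.1% with equal list lengths. The share of 72h peaks found in the aly list was 59.7%, 65.4% and 74.2% under the last 3. Nucleosome positions matched for 23.5% of aly and 20.1% of 72h positions within 20 bp, 42.5% and 35.7% at an occupancy of 0.5 or more, and 54.4% and 30.7% at 10 or more reads. The 72h-only class held 15.9% of genes with no neighbour within 500 bp. Its share lower in aly was 72.7% at the q limit, 79.2% with equal list lengths, 88.7% for isolated genes (background 51.0%) and 74.8% for protein-coding genes (background 28.3%), and its median was -4.76 at the q limit and -7.57 for isolated genes. The aly-only median was 0.05 for isolated genes. The isolated, protein-coding and 10-read settings were chosen after seeing the data. The cause was not tested.

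Leaving out 1 library gave 4533 to 4621 lower and 2988 to 3011 higher genes. The replicate number pairs no samples (correlations of 0.03 to 0.096), and the replicate block gave 4532 lower and 2983 higher. Of the named genes CG2875, not called in any setting, changed sign (log2 -0.13, from -0.33 to 0.04 with 1 library left out), and across settings 4 of their values lost and 5 gained an adjusted p below 0.05 (Taf12L and aub lost it). With a window of 500 bp 39 of 86 named genes changed class. Windows at the gene start alone could not be run without strand. ATAC-seq depth per library is unknown, so absence from a list is not absence of open chromatin, and weak peaks are the least certain.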

Other observations

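The 5 strongest unshared peaks away from gene ends were taken from each list. In the aly list they were in Ir41a at chr2R:5014778-5015515 and PlexA at chr4:1011311-1011668, and outside genes nearest to TpnC41C, Best4 and l(2)41Ab. In the 72h list 2 lay nearest to CG43149, 1 on Y nearest to Su(Ste):CR42422, 1 inside klu and 1 near hkb. The peak in Ir41a had the highest fold of all unshared aly peaks, 16.1, and was also in the 48h list and not in the topi, control or bam lists. The aly peaks in PlexA and near TpnC41C, Best4 and l(2)41Ab were all in the heat shock control list. All of these but the PlexA peak were also in the bam list. All 5 of the 72h peaks were also in the 48h and heat shock control lists, and 4 of the 5 also in the bam list.

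Some long genes gathered many unshared peaks. The RNA-binding protein gene sm, 113.6 kb long, held 43 aly peaks without a 72h partner beside 28 shared ones, and had 1511 CPM in aly and 753 CPM at 72h. The gene heph, another RNA-binding protein gene, held 31 unshared aly peaks and 42 unshared 72h peaks, with 708 CPM in aly and 585 CPM at 72h. Sema2a, a semaphorin gene, held 15 unshared aly peaks beside 7 shared in 33.3 kb, with 207 CPM in aly and 17.0 CPM at 72h. DIP-lambda held 18 unshared 72h peaks and no shared one, with 0.704 CPM in aly and 15.8 CPM at 72h. More unshared peaks did not always go with more RNA. The gene dpy held 19 unshared 72h peaks, with 145 CPM in aly and 31.7 CPM at 72h. Ten-m held 15 unshared aly peaks, with 49.4 CPM in aly and 72.4 CPM at 72h. At pum, with 24 unshared 72h peaks, RNA was 54.9 CPM in aly and 55.2 CPM at 72h. These genes were chosen for their peak counts after these were seen.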
